A study of Mus musculus with 16 samples.

Results

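Elastic fibre genes in the ear were followed in male mice that had been biopsied at 24 and again at 30 months of age. The 10 genes, Eln, Fbn1, Fbn2, Fbln1, Fbln2, Fbln5, Efemp2, Mfap4, Mfap5 and Emilin1, were chosen by name as structural components of the fibre, out of 45706 genes in the count table. All 10 were counted in every library and all 10 passed the filter on low counts.

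Elastic fibres give skin, arteries, lung and the elastic cartilage of the ear their recoil. Their core is tropoelastin, the soluble product of Eln, which is secreted, gathered on a scaffold of fibrillin microfibrils with the help of fibulins and then cross-linked by lysyl oxidases into an insoluble polymer. The polymer is laid down mostly early in life and is replaced very slowly, so that an RNA level in an old animal is no measure of the amount of fibre in the tissue.

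The animals, 8 males of the inbred strain C57Bl/6J, carried no engineered allele and received no treatment in either group. An ear clip from the first ear gave the library at 24 months and a clip from the other ear gave the library at 30 months, so that the study compared 2 ages within each mouse, and age and the ear sampled cannot be told apart. The exact ages were 23.8 to 24.4 months and 29.0 to 30.1 months. The mice are called by their numbers, 13, 14, 21, 29, 43, 50, 64 and 75, and every count is a number of RNA-seq reads assigned to a gene.

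The 16 libraries held 22967222 to 36162431 reads on genes (median 28922265). Each member had at least 65 reads in its poorest library, so that low depth touched only Fbn2. The lists of marker genes for fibroblasts, smooth muscle, endothelium, cartilage, keratinocytes, skeletal muscle, fat, macrophages and nerve all had reads, and none of their genes was at 0 in every library. The library of mouse 50 at 30 months stood apart, with a summed level of 11 fibroblast markers of 14903 CPM (counts scaled to a library of 1000000 reads), against 2791 to 8170 CPM in the other libraries. The values that leaving out mouse 50 moved most are given with and without it. In bulk tissue, fewer cells of a type and less RNA per cell cannot be told apart.

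Promoters of 3 fibulin genes are shown, since they were the members with a window upstream of a start site that touched no annotated exon. Any link between these sequences and the levels of the genes was not tested. Each run is the 250 bases before a start site on the gene's own strand (RefSeq, GRCm38.p6), and capitals mark a GC box (GGGCGG on either strand), the binding motif of Sp1-type factors.
Fbln5, chr12:101819120-101819369, minus strand: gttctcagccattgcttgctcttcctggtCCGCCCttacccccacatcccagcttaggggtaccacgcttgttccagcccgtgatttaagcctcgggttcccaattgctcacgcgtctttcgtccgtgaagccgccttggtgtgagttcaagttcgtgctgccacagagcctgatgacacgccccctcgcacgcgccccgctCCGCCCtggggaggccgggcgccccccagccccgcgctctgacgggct
Fbln1, chr15:85205699-85205948, plus strand: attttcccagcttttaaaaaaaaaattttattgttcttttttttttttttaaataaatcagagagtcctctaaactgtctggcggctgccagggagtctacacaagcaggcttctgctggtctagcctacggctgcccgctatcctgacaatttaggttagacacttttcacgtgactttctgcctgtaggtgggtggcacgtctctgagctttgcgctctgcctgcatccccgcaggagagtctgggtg
Efemp2, chr19:5473696-5473945, plus strand: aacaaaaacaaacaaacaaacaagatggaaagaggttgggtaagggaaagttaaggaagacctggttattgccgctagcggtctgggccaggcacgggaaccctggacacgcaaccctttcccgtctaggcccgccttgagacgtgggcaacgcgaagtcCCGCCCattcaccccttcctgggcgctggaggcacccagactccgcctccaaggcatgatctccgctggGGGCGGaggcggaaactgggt
The windows of Fbln5 and Efemp2 each held 2 GC boxes and that of Fbln1 held none, with a GC content of 65.2%, 59.2% and 46.4%, against a median of 52.4% over 32841 promoter windows of the same length. This contrast depends on the start site. In windows of other start sites, which touched an exon, Fbln1 held 1 GC box (62.4% GC) and Fbln5 held 0 (49.6%). Efemp2 held 5 in each of its other windows (75.6% and 78.8%). At least 1 GC box was found in 32.7% of all windows, a TATA box (TATAAA) in 12.4% and an AP-1 motif (TGANTCA) in 6.75%. Of the 10 windows listed for 6 members, 7 held a GC box, and neither of the other motifs was found in any. Several windows belong to the same gene and overlap.

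Expressed as RPKM, that is reads scaled both to exon length in kilobases and to a library of 1000000 reads, the members spanned a wide range of levels. Mfap4, a microfibril-associated glycoprotein that binds tropoelastin and fibrillin, had the highest mean level, 20.3 ± 14.8 RPKM (SD, n = 16 libraries), and Eln followed with 16.7 ± 6.32 RPKM. Fbln2 stood at 12.1 RPKM, Fbn1 at 7.33, Fbln1 at 5.72, Fbln5 at 5.67, Mfap5 at 5.22, Efemp2 at 3.26 and Emilin1 at 2.51 RPKM. Fbn2, the fibrillin known mainly from developing tissue, was lowest at 0.507 ± 0.195 RPKM. Among the 21402 genes compared, Mfap4 lay at the 83.9th percentile of level, Eln at the 80.4th and Fbn2 at the 16.7th.

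The order itself was read from the data, and neighbours in it were then compared within mice (exact permutation test that flips the sign of each mouse's difference, two-sided, n = 8, with Benjamini-Hochberg adjustment over 9 pairs). Mfap4 and Eln could not be separated, with Mfap4 above in 4 of 8 mice (mean log2 difference 0.09 ± 0.49, SD, exact p = 0.609, adjusted p = 0.686). Fbln1 and Fbln5 (adjusted p = 0.883) and Fbln5 and Mfap5 (adjusted p = 0.121) did not differ beyond their spread either, by the same exact test. Eln lay above Fbln2 in 8 of 8 mice by 0.42 ± 0.22 on the log2 scale, and Emilin1 above Fbn2 by 2.40 ± 0.37. Both pairs reached the smallest p that 8 mice allow, 0.0078125 (exact test, adjusted p = 0.0141). The ranges over all 16 libraries overlapped for every pair of neighbours except Emilin1 and Fbn2. Levels per length depend on the exons counted. The annotated exons of Eln cover 8098 bases in all but 3853 in its longest transcript, and by that length Eln came first, at 35.0 RPKM, with Mfap4 at 22.0.

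**Figure D1:**
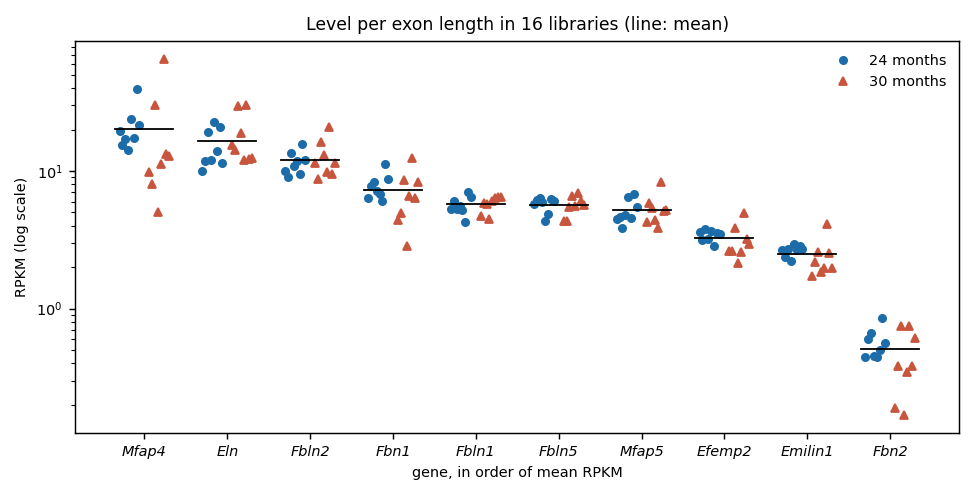
Level of each elastic fibre gene in RPKM on a log axis, with 1 point for each of the 16 libraries (circles at 24 months, triangles at 30 months) and a line at the mean. The means run from 20.3 RPKM for Mfap4 to 0.507 for Fbn2, and the points of Mfap4, Fbn1 and Fbn2 spread wider at 30 than at 24 months.

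The question the pairs address is whether these genes had changed level between 24 and 30 months. No member changed past the threshold, with 0 of 10 at an adjusted p under 0.05 in edgeR's quasi-likelihood fit, which held a term for each mouse and used Benjamini-Hochberg adjustment, in a fit in which 0.0% of the 21526 genes tested were called. At an unadjusted p under 0.05 the count was also 0 of 10, against 12% of all genes. DESeq2's Wald test called 0 members by adjusted p and had 1, Fbn2, at an unadjusted p under 0.05. The median log2 fold change was -0.10 over the members and 0.007 over all genes, with 6 of 10 members below 0. The levels at both ages overlapped for all 10 members, and the ranges failed to overlap in 0.195% of all genes.

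Eln (ENSMUSG00000029675, chr5:134702593-134747323, minus strand, GRCm38), the gene of the elastic core, ranged from 81.5 to 184 CPM at 24 months (median 105) and from 96.7 to 243 CPM at 30 months (median 119.5). The 2 highest libraries were those of mice 50 and 21 at 30 months, and the ranges overlapped over most of their length. At 30 months 6 of 8 mice had a higher level, the others being mice 43 and 64, where it went from 184 to 96.7 CPM and from 168 to 98.9 CPM. The fitted log2 fold change was 0.21 (SE 0.21, adjusted p = 0.707). A change of Eln was therefore not detectable beside changes that ran from -0.93 to 1.09 on the log2 scale between mice.

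Fbn1 (ENSMUSG00000027204, chr2:125300594-125507993, minus strand), the main fibrillin of adult microfibrils, ranged from 73.3 to 136 CPM at 24 months (median 91.1) and from 34.7 to 151 CPM at 30 months (median 78.8). The lowest library was that of mouse 29 at 30 months and the highest that of mouse 50 at 30 months, so that the range at 24 months lay inside the later one. Of the 8 mice, 6 were lower at 30 months (log2 fold change -0.30, SE 0.21, adjusted p = 0.589).

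Fbn2 (ENSMUSG00000024598) ranged from 5.87 to 11.3 CPM at 24 months (median 7.0) and from 2.24 to 9.95 CPM at 30 months (median 5.06). Mice 13, 14, 29, 43 and 64 had 2.51, 5.03, 2.24, 4.58 and 5.10 CPM at 30 months, below every library at 24 months, whereas mice 21, 50 and 75 were higher than before. The log2 fold change was -0.48 (SE 0.23, unadjusted p = 0.0635, adjusted p = 0.437). By unadjusted p it came nearest of the 10 members to the threshold.

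Mfap4 (ENSMUSG00000042436, chr11:61485431-61488900, plus strand) varied most. It ranged from 27.5 to 75.7 CPM at 24 months (median 35.3) and from 9.65 to 126 CPM at 30 months (median 23.2). Of the 8 mice, 6 were lower at 30 months, by 0.76 to 1.56 on the log2 scale, whereas mouse 21 was higher by 0.84 and mouse 50 by 1.93. The log2 fold change was -0.56 (SE 0.38, adjusted p = 0.566), and the SD of the change over mice, 1.23, was the widest among the members.

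Mfap5 (ENSMUSG00000030116, chr6:122505845-122529290, plus strand), a small microfibril glycoprotein that binds fibrillin, ranged from 13.7 to 24.5 CPM at 24 months (median 16.8) and from 13.9 to 29.9 CPM at 30 months (median 18.6). The ages overlapped nearly in full apart from mouse 50 at 30 months. The log2 fold change was 0.04 (SE 0.16, adjusted p = 0.936), with 3 of 8 mice higher.

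Some of the fibulins bind tropoelastin, lysyl oxidases or fibrillin and help to deliver the core protein to the microfibril. Fbln1 (ENSMUSG00000006369, chr15:85205949-85286535, plus strand) was the steadiest member, with 18.7 to 30.6 CPM at 24 months (median 23.7) and 19.4 to 28.4 CPM at 30 months (median 26.1). Its log2 fold change was 0.03 (SE 0.094, adjusted p = 0.900), and the SD of its change, 0.27, was near the median of 0.24 for genes with a mean of at least 10 CPM. Fbln2 (ENSMUSG00000064080, chr6:91212455-91272540, plus strand) ranged from 57.4 to 99.98 CPM (median 72.3) and from 56.1 to 134 CPM (median 73.2), with 4 mice higher and 4 lower (log2 fold change 0.10, SE 0.16, adjusted p = 0.823). The highest value was again that of mouse 50 at 30 months.

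Fbln5 (ENSMUSG00000021186, chr12:101746565-101819055, minus strand), whose product links tropoelastin to cells and is needed for fibre assembly, ranged from 30.1 to 43.9 CPM at 24 months (median 41.7) and from 29.8 to 47.8 CPM at 30 months (median 38.8). Its log2 fold change was -0.04 (SE 0.11, adjusted p = 0.905), and 5 of 8 mice were lower. Efemp2 (ENSMUSG00000024909, chr19:5473954-5482517, plus strand), which encodes fibulin-4, a recruiter of lysyl oxidase, lay within a narrow band of 10.9 to 14.3 CPM at 24 months (median 13.3) and spread to 8.13 to 18.9 CPM at 30 months (median 10.5). It was lower in 6 of 8 mice (log2 fold change -0.17, SE 0.14, adjusted p = 0.639).

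Emilin1 (ENSMUSG00000029163, chr5:30913402-30921277, plus strand), a glycoprotein at the interface of elastin and microfibril, ranged from 10.9 to 14.6 CPM at 24 months (median 13.2) and from 8.51 to 20.5 CPM at 30 months (median 10.3). All mice but number 50 were lower at 30 months, 7 of 8. The log2 fold change was -0.20 (SE 0.13, adjusted p = 0.566).

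**Figure D2:**
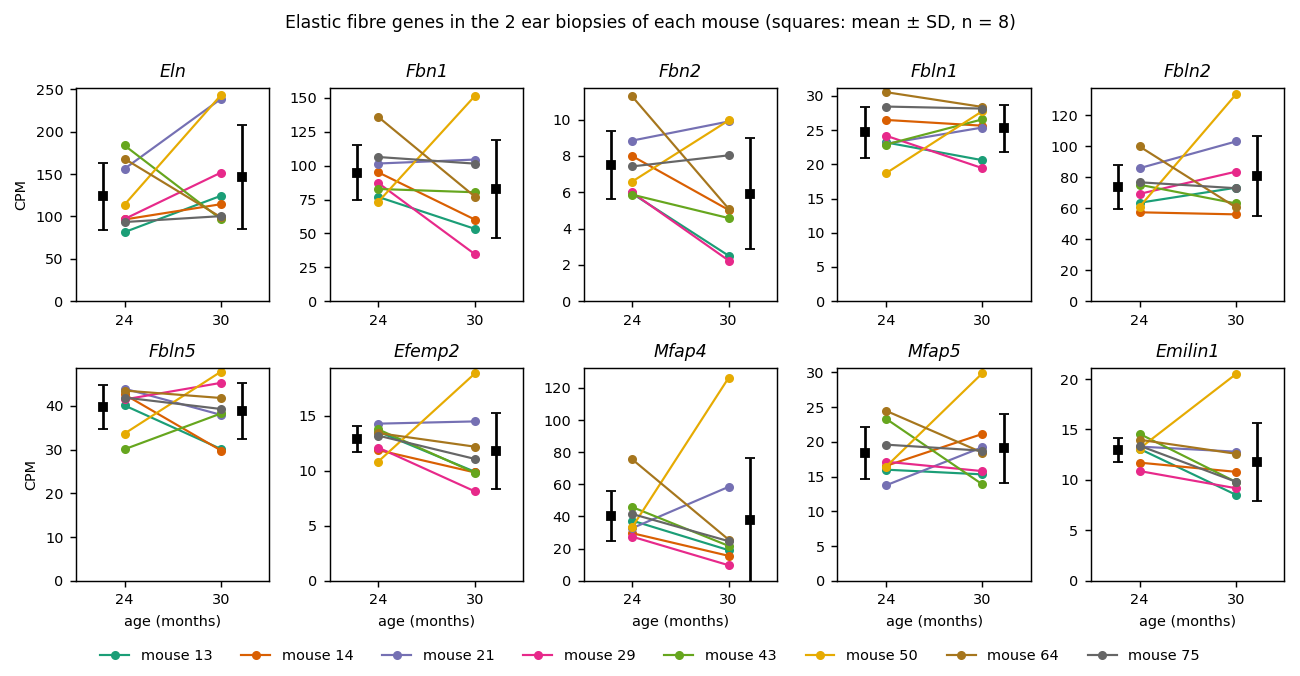
CPM of each elastic fibre gene in the 2 biopsies of each mouse, joined by a line per mouse, with the mean ± SD of 8 mice as a square at each age (the lower bar of Mfap4 at 30 months is cut at 0). Mouse 50 is higher at 30 months in all 10 panels and holds the highest 30-month value in every panel but that of Fbln1, while the 2 ages overlap in every panel.

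Exons of Eln, Fbn1, Fbn2, Efemp2 and Mfap4 overlap those of another gene on the opposite strand (Gm30003, Gm9913, Gm26507, Mus81 and Mapk7), over 267, 2442, 129, 173 and 89 bases. Whether the counting used strand is not given in the sources used here, so reads in those stretches could be shared or lost. The other 5 members share no annotated exon base with another gene.

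The direction of change was shared by most members within a mouse and differed between mice. In mouse 50 all 10 were higher at 30 months, with a median change of 0.83 on the log2 scale. In mouse 64 all 10 were lower, with a median change of -0.57. Mouse 21 had 8 higher and 2 lower (median 0.15), and mice 13, 14, 43 and 75 each had 2 higher and 8 lower, with medians of -0.43, -0.19, -0.42 and -0.07. In mouse 29 there were 3 higher and 7 lower (median -0.28), with Eln higher by 0.65 and Fbn1 lower by 1.33. Of all genes tested, 47.2% to 50.9% were higher at 30 months in each mouse.

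The log2 levels were more spread at 30 than at 24 months in 9 of 10 members, the exception being Fbln1. The same held for 77.7% of all genes tested and for 83.5% of those with a mean of at least 10 CPM, so a wider spread was not particular to the members. The SD of log2 CPM went from 0.29 to 0.66 for Fbn1, from 0.33 to 0.82 for Fbn2, from 0.46 to 1.16 for Mfap4, from 0.13 to 0.38 for Efemp2 and from 0.14 to 0.40 for Emilin1. Without mouse 50 it was wider at 30 months in 8 of 10, with Eln and Mfap5 the exceptions, and the SDs at 24 and 30 months were then 0.27 and 0.56 for Fbn1, 0.35 and 0.79 for Fbn2, 0.49 and 0.79 for Mfap4, 0.098 and 0.27 for Efemp2, and 0.15 and 0.22 for Emilin1.

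Leaving out mouse 50 moved the count of members at an unadjusted p under 0.05 from 0 to 5 of 10, all lower at 30 months, where 7.12% of all genes were lower by the same rule. These were Mfap4 (log2 fold change -0.87, unadjusted p = 0.00621), Efemp2 (-0.31, unadjusted p = 0.00868), Emilin1 (-0.32, unadjusted p = 0.00952), Fbn1 (-0.48, unadjusted p = 0.0125) and Fbn2 (-0.64, unadjusted p = 0.0136). Each of the 5 p-values is edgeR's, and the adjusted values were 0.279 to 0.321, so that none was called. Of the 7 mice left, Emilin1 was lower in 7, and 9 of the 10 members had a log2 fold change below 0. The exception was Eln, at 0.08. Leaving out any other mouse gave 0 or 1 member at an unadjusted p under 0.05.

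**Figure D3:**
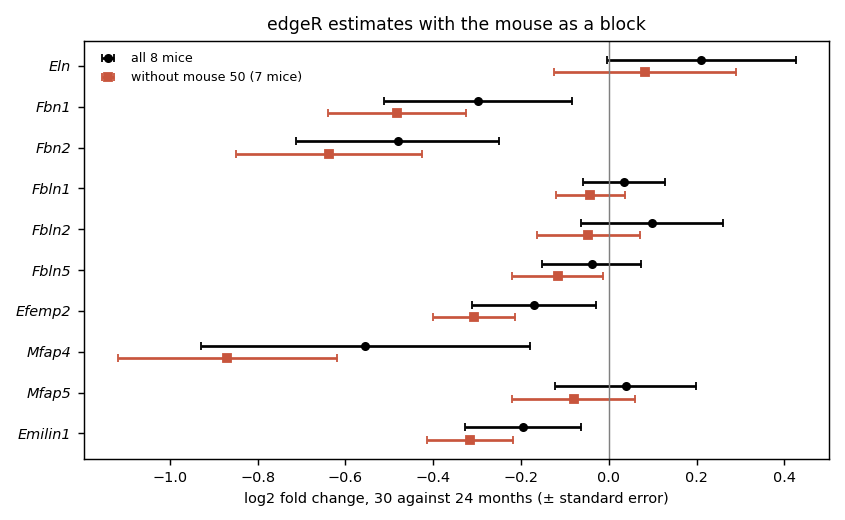
Fitted log2 fold change of each elastic fibre gene, 30 against 24 months, with its standard error, for all 8 mice (circles) and for the 7 mice without number 50 (squares). Every estimate moves down without mouse 50, Mfap4 from -0.56 to -0.87 and Eln from 0.21 to 0.08.

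Markers of the cells that make and surround the fibres were read in the same libraries. Of 11 fibroblast markers, 10 had a log2 fold change below 0 (median -0.30) and none was at an unadjusted p under 0.05. Their summed level was 4301 to 8170 CPM at 24 months and 2791 to 14903 CPM at 30 months, and their mean change was lowest in mouse 29 (-1.24) and highest in mouse 50 (1.49). Only mice 21 and 50 had a higher mean of these markers at 30 months, and they were also the only mice in which Fbn1, Efemp2 and Mfap4 were higher. The other members did not split this way. Fbn2 was also higher in mouse 75, Fbln1 in mouse 43, Mfap5 in mouse 14, Fbln2 in mice 13 and 29, and Eln in mice 13, 14, 29 and 75. Emilin1 and Fbln5 were lower in mouse 21, and Fbln5 was higher in mice 29 and 43. The part of fibroblast RNA in the levels of the members was not tested. Macrophage markers were also highest in mouse 50, with a mean change of 1.77, and their part was not tested.

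Eln and the fibroblast markers went in opposite directions in 4 mice. Eln was higher at 30 months in mice 13, 14 and 29, in which the fibroblast markers were lower, with mean changes of -0.78, -0.76 and -1.24, whereas the means of 8 smooth muscle and pericyte markers and of 8 endothelial markers were higher. In mouse 75, where Eln was higher by 0.10, the fibroblast mean was -0.30, the smooth muscle mean -0.14 and the endothelial mean 0.13. In mice 43 and 64, where Eln was lower, the smooth muscle means were -0.47 and -0.02 and the endothelial means -0.44 and -0.07. These lists were not alone in this. The fat cell and skeletal muscle means were also higher in mice 13, 14 and 29 and lower in mouse 43 (-1.73 and -3.90). Both were higher in mouse 64, where Eln was lower. In mouse 75 the fat cell mean was higher and the skeletal muscle mean lower. The endothelial list had 5 of 8 genes higher at an unadjusted p under 0.05 (background 4.86%) and a summed level of 130 to 179 CPM at 24 months and 135 to 347 CPM at 30 months. The smooth muscle list had 1 higher and 1 lower (335 to 901 and 411 to 966 CPM). Des, 1 of these 8 genes, held 78.9 to 565 CPM at 24 months and 125 to 573 CPM at 30 months. It moved by -2.17 on the log2 scale in mouse 43 and by 2.66 in mouse 13, where the skeletal muscle means moved by -3.90 and 3.62. The part of skeletal muscle RNA in the smooth muscle sums and means was not tested. The 12 cartilage markers tested were all below 0, with 7 lower at an unadjusted p under 0.05 (background 7.18%), and their sum was 199 to 344 CPM and then 154 to 244 CPM. None of these marker genes was called by adjusted p, and the part of these cells in the change of Eln was not tested.

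**Figure D4:**
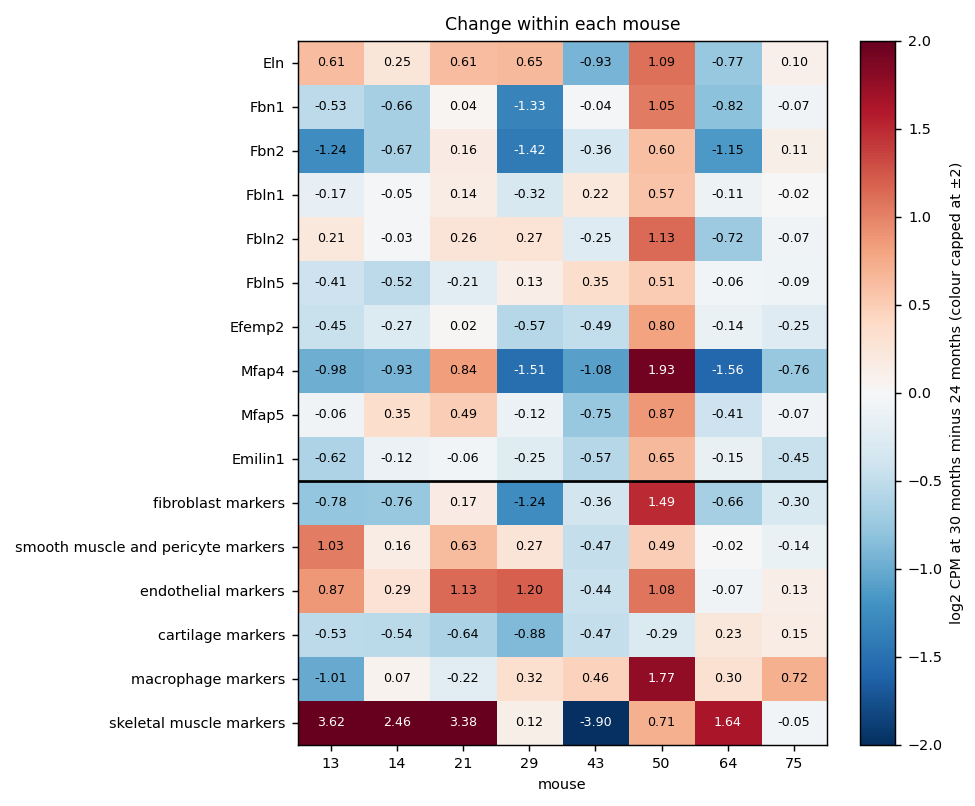
Change in log2 CPM from 24 to 30 months in each mouse (columns) for the 10 elastic fibre genes (above the line) and for the mean of 6 marker lists (below it), with colour capped at 2 in both directions. Mouse 50 is higher in all 10 genes and by 1.49 in fibroblast markers, and mouse 29 pairs an Eln change of 0.65 with a fibroblast change of -1.24.

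Ratios between members ask whether the make-up of the fibre message changed, within a library and free of its scaling. The ratio of Eln to Fbn1, core to microfibril, had a median of 1.76 at 24 months and 2.63 at 30 months in RPKM. It was higher in 7 of 8 mice, most in mouse 29 (1.98 on the log2 scale) and lower in mouse 43 (-0.88). The mean log2 change of 0.50 ± 0.86 (SD, n = 8) was within the spread between mice (two-sided exact sign-flip permutation test, p = 0.133, adjusted p = 0.177 over 4 ratios). The mean was 0.29 without mouse 29 and 0.695 without mouse 43 (adjusted p = 0.354 and 0.0625 by the same exact test). The ratio of Fbn2 to Fbn1 went from a median of 0.0735 to 0.0605 and was higher in 2 of 8 mice (mean log2 change -0.20 ± 0.31, exact p = 0.102, adjusted p = 0.177). Mfap5 to Mfap4 had medians of 0.259 and 0.397 and was higher in 6 of 8 mice (0.54 ± 0.86, exact p = 0.133, adjusted p = 0.177), and the mean change was 0.77 without mouse 50. Fbln2 to Fbln1, at medians of 2.10 and 2.11, showed no shift beyond its spread (0.06 ± 0.45, exact p = 0.680). None of the 4 ratios passed the threshold.

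Partners of fibre assembly were described from a list of 31 genes. It held lysyl oxidases, latent TGF-beta binding proteins, other fibulins and genes named for microfibrils. It also held ADAMTS proteases and ADAMTS-like proteins, copper and proton transporters and biglycan. Mfap1a and Mfap1b were listed for their name alone, and both were below 0 (log2 fold change -0.08 and -0.06). Of the 30 that were matched and tested, 0 were called by adjusted p in edgeR, while 1 was higher and 6 were lower at an unadjusted p under 0.05, against 4.86% and 7.18% of all genes. Their median log2 fold change was -0.10, with 21 of 30 below 0. Without mouse 50, 12 of 30 were lower and 0 were higher by the same rule, where 7.12% and 4.57% of all genes were.

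The lower partners at an unadjusted p under 0.05 were of several kinds. Atp7a, the pump that loads lysyl oxidases with copper, ranged from 21.4 to 23.8 CPM at 24 months and from 10.2 to 23.4 CPM at 30 months, and was lower in 6 of 8 mice (log2 fold change -0.47, SE 0.14, adjusted p = 0.279). Adamts6, a protease related to those that act on microfibrils, stood at 4.64 ± 0.545 and 3.51 ± 1.16 CPM and was lower in 7 of 8 mice (-0.45, unadjusted p = 0.00711). Emilin3, a relative of Emilin1, went from 2.81 ± 0.411 to 1.95 ± 1.0 CPM (-0.67, unadjusted p = 0.0129 in edgeR). Bgn, the small proteoglycan biglycan, was the most abundant of them at 470 ± 63.1 and 378 ± 123 CPM (-0.37, unadjusted p = 0.0211).

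Efemp1, which encodes fibulin-3, had 87.4 ± 15.5 and 72.5 ± 15.3 CPM (-0.28, unadjusted p = 0.0335), and Ltbp2, a fibrillin-binding protein, 30.0 ± 9.0 and 20.8 ± 5.97 CPM (-0.53, unadjusted p = 0.0493). Both were lower in 7 of 8 mice, with mouse 43 the exception. Ltbp2 was no longer at an unadjusted p under 0.05 without mouse 13, 14, 21, 29, 64 or 75. The same held for Efemp1 without mouse 13, 14, 21 or 29, and for Bgn without mouse 13 or 29. The partner that was higher was Mmrn2, an EMILIN-family protein of endothelial cells, at 9.44 ± 1.42 and 14.9 ± 6.43 CPM and in 6 of 8 mice (0.56, unadjusted p = 0.0300). Without mouse 50 its log2 fold change was 0.43 (adjusted p = 0.470 in edgeR), and it was no longer at an unadjusted p under 0.05 without mouse 13, 21, 29 or 50. The endothelial markers given above were higher in the same direction, and their part in the level of Mmrn2 was not tested. The adjusted p of these 7 partners lay between 0.279 and 0.413.

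Growth factors that microfibrils hold in store gave 1 of 8 genes at an unadjusted p under 0.05, where 12% of all genes were. This was Bmp5, lower in 7 of 8 mice (log2 fold change -0.48, unadjusted p = 0.0258). The next 2 by p were Tgfb3 (-0.10, unadjusted p = 0.200) and Bmp2 (unadjusted p = 0.390), both by edgeR, and the median over the list was -0.05.

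Elastases and their inhibitors were tested for 12 of 14 listed genes, of which 1 was at an unadjusted p under 0.05, where 12% of all genes were. Mmp7 had no read in any library and Elane did not pass the filter. Mmp9, a gelatinase that also cuts elastin, ranged from 5.03 to 11.5 CPM at 24 months (median 7.04) and from 1.52 to 5.57 CPM at 30 months (median 3.88). It was lower in 8 of 8 mice although the ranges overlapped, at means of 7.75 ± 2.29 and 3.81 ± 1.5 CPM. The log2 fold change was -1.07 (SE 0.26, unadjusted p = 0.00171, adjusted p = 0.222 in edgeR), so that it was not called, whereas DESeq2's Wald test gave an adjusted p of 0.00751. Over 12 alternatives the adjusted p ran from 0.00751 to 0.513 and the log2 fold change from -1.20 to -0.92. Ctsl, a lysosomal cysteine protease, followed by p with 0.22 (unadjusted p = 0.0877) and Prtn3, a neutrophil protease, with 0.62 (unadjusted p = 0.0880), in the same edgeR fit. Prtn3 lay near the floor, at 0.085 to 0.39 CPM at 24 months and 0.19 to 0.69 CPM at 30 months.

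Receptors through which cells hold the fibre gave 2 of 11 genes at an unadjusted p under 0.05, both lower, where 7.18% of all genes were lower by the same rule. Itga8, an integrin subunit of smooth muscle and fibroblasts, had a log2 fold change of -0.48 and was lower in 6 of 8 mice (unadjusted p = 0.0147 in edgeR). Itgav, a subunit of the integrins that bind fibrillin, had -0.13 and was lower in 7 of 8 (unadjusted p = 0.0261 in edgeR). Itgav was no longer at an unadjusted p under 0.05 without mouse 13, 21, 29, 50 or 75. Ctsa, the protective protein of the elastin receptor complex, came next at 0.13 (unadjusted p = 0.0849 in edgeR), and none was called by adjusted p.

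**Figure D5:**
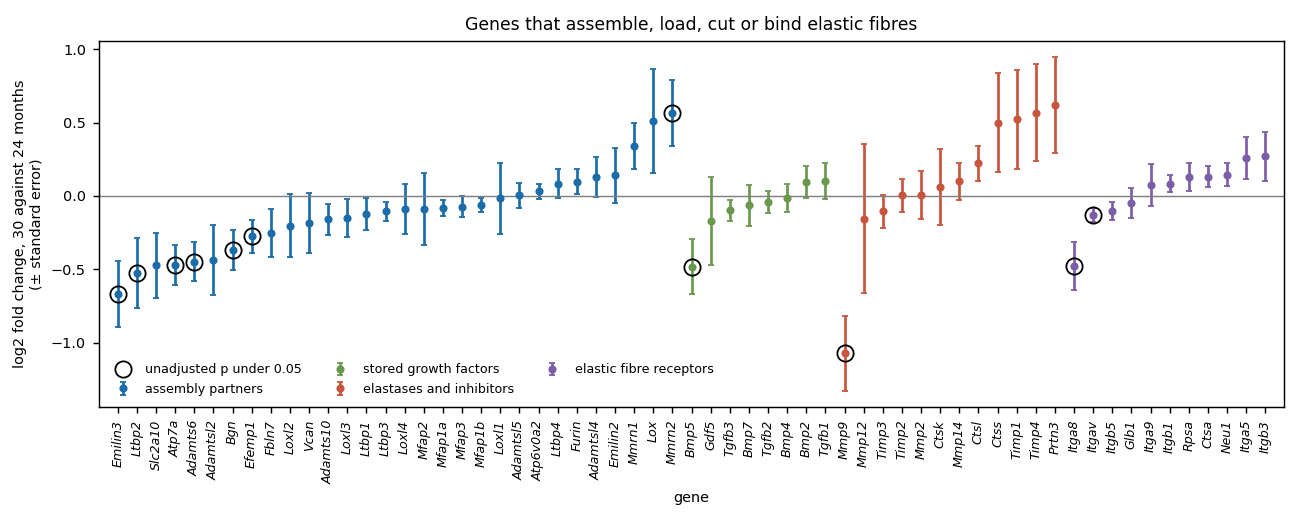
Fitted log2 fold change, 30 against 24 months, with its standard error for each tested gene of the 4 pathway lists, ordered by value within a list, with open circles around genes at an unadjusted p under 0.05. Of the 30 assembly partners 21 lie below 0, and Mmp9 has the lowest value of all, -1.07.

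The genes with a profile most like that of Eln over the 16 libraries were sought among 11685 genes with a mean of at least 10 CPM, as the smallest root mean square difference of centred log2 CPM. They were Thbs2, a matricellular protein (0.22), then Helz2 (0.26), Rgs3 (0.29), Shank3 (0.29) and Cygb (0.29), where a flat profile would lie at 0.48. Nearest to the median profile of the 10 members were Rcn3 (0.14), Snhg18 (0.15), Vim (0.15), Lsp1 (0.15) and St3gal4 (0.15), against 0.28 for a flat one. In mouse 50, these 10 genes were all higher at 30 months, by 0.63 to 1.45 on the log2 scale, which the search for a like profile itself favours.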

How the data were processed

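RNA-seq libraries of 16 ear biopsies (8 mice, each at 24 and 30 months) were analysed. The authors aligned single-end reads with TopHat2 2.1.0 to mm10 (GRCm38) and counted them per gene with HTSeq 0.6.1p1, according to the submitters' processing notes. The paper's methods name an earlier TopHat version, and HTSeq with featureCounts as a later counter. The deposited values are raw counts, not normalized. The 5 summary lines that name no gene held 18.7% to 21.1% of a library's reads and were left out of sizes and tests. No column came from samples elsewhere. Of 45706 identifiers, 45143 had an entry in GENCODE M21, which gave symbols, positions and exon lengths, and the rest held 0.130% of the counts. The listed symbol Adamtsl6 was not matched.

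All genes were fitted in R 4.3.3 with edgeR 4.0.16 (TMM, filterByExpr, quasi-likelihood test, mouse as a block, Benjamini-Hochberg threshold 0.05). The pairing comes from the animal number in the sample titles. Deviations from the age means correlated no more within a mouse (median -0.02) than between mice (median -0.005). On simulated counts of 21526 genes for this comparison, 200 of 200 genes changed by 1 on the log2 scale were called, all in the right direction, as were 11 unchanged genes. The changed genes were drawn from the better counted ones, all genes shared 1 dispersion, and the effect of a mouse was the same at both ages. In the members the SD of the change over mice had a median of 0.52. The simulation therefore cannot tell how often such a change in them would be called. RPKM used TMM-scaled library sizes, and changes of marker lists are means of log2(CPM + 0.5). Exact tests ran over all 256 sign patterns in Python 3.11.15 with numpy 2.4.6. Named were all members, the genes of each pathway list at an unadjusted p under 0.05 (the 3 smallest p where fewer), and the 5 genes nearest in profile. Members and lists were chosen with earlier results of these data known. Alternatives were DESeq2 1.42.0, its size factors, no filter, no block, other lengths and pseudocounts, and each mouse left out. Promoter windows were those RefSeq lists for 6 members. Eln, Fbn2, Mfap4 and Mfap5 had none there.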

Additional observations from a re-analysis of the deposited data

Results flagged for a closer look

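In groups of 8 values, those whose highest or lowest sample lay far from the rest were sought over 83 groups (levels at each age and changes of the members and of the pathway genes at an unadjusted p under 0.05, the median change of the members, and changes of the ratios and mean changes of the other lists). Of these, 10 were found, where chance alone would give 4.15, since about 1 in 20 groups is marked this way. Mouse 50 accounts for 8 of them. Its Efemp2 change was 0.80 on the log2 scale, with the next highest mouse at 0.02. Its Emilin1 change was 0.65, with the next at -0.06. At 30 months its levels were 126 CPM for Mfap4 (next 58.4), 29.9 CPM for Mfap5 (next 21.1), 20.5 CPM for Emilin1 (next 12.8) and 6.05 CPM for Adamts6 (next 3.71). Its mean change was 0.45 over the assembly partners (next -0.06) and 0.23 over the receptors (next 0.09). The others were Mfap4 at 24 months in mouse 64, at 75.7 CPM with the next mouse at 45.9, and the mean change of the fat cell markers in mouse 43, at -1.73 with the next lowest mouse at 0.14. The fibroblast markers of mouse 50 summed to 4341 CPM at 24 and 14903 CPM at 30 months, and mouse 64 at 24 months had the highest sum at that age, 8170 CPM. Their part in these values was not tested.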

How the results depend on the processing

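No member was called by adjusted p under any alternative, although DESeq2's Wald test called 228 genes in all (77 higher, 151 lower) where edgeR called 0. The fit with no replicate block, which ignores the pairing, called 3 genes (2 higher, 1 lower), and it moved the elastases and inhibitors at an unadjusted p under 0.05 from 1 to 3 and the growth factors from 1 to 0. Over all genes that count went from 2593 to 3341. The fit with no block changed no call of a member, but Mfap4 was at -0.10 in it in place of -0.56, and Fbn1 at -0.20 in place of -0.30. Members at an unadjusted p under 0.05 were 0 with all mice and 1 (Fbn2) both under DESeq2's Wald test and with no filter on low counts. With each mouse left out in turn, this count ran from 0 to 5, the highest without mouse 50 and the others 0 or 1. The count ran from 4 to 12 for assembly partners, lowest without mouse 13 or 21 (4 each) and highest without mouse 50, from 0 to 1 for growth factors, 0 without mouse 13, 21 or 29, from 1 to 3 for elastases, 3 without mouse 13 and 2 without mouse 14 or 43, and from 1 to 3 for receptors, 1 without mouse 29 or 50 and 3 without mouse 64. The share of all genes at that p moved as well when a mouse was left out. It ran from 3.57% (without mouse 29) to 8.99% (without mouse 43) higher and from 4.66% (without mouse 21) to 8.6% (without mouse 43) lower. Fold changes near 0 turned their sign in 7 of 130 alternatives. With each mouse left out, Fbln1 ran from -0.042 (without mouse 50) to 0.088, Fbln2 from -0.047 (without mouse 50) to 0.21, Fbln5 from -0.12 to 0.029 (without mouse 14, and 0.026 without mouse 13) and Mfap5 from -0.080 (without mouse 50, and -0.0082 without mouse 14 and -0.018 without mouse 21) to 0.16. Among the other members, leaving out a mouse moved Eln from 0.08 (without mouse 50) to 0.38 (without mouse 43, and 0.35 without mouse 64), Fbn1 from -0.48 (without mouse 50) to -0.15 (without mouse 29), Efemp2 from -0.31 (without mouse 50) to -0.11 (without mouse 29) and Emilin1 from -0.32 (without mouse 50) to -0.12 (without mouse 13). The Fbln2 to Fbln1 ratio change ran from -0.010 (without mouse 29, and -0.0063 without mouse 50) to 0.16. The Fbn2 to Fbn1 change was 0.12 with a pseudocount of 1 RPKM, which is above the level of Fbn2 itself. By longest transcript the order of levels began with Eln, and 5 of 9 neighbours differed in place of 6. The cause of the other shifts was not tested. Depth limits mainly Fbn2, with 65 reads in its poorest library.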

Other observations

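The remaining marker lists of the ear gave no gene called by adjusted p in edgeR either. The 10 skeletal muscle markers were all above 0 (median log2 fold change 0.97) with a sum of 850 to 10371 CPM at 24 months and 1216 to 7989 CPM at 30 months, and their mean change ran from -3.90 in mouse 43 to 3.62 in mouse 13. Of 11 hair follicle markers 10 were below 0 (median -0.70, sums of 15.7 to 354 CPM and 18.9 to 92.8 CPM). Basal keratinocyte markers had 6 of 7 below 0 (median -0.16, 1 lower at an unadjusted p under 0.05), and differentiated keratinocyte markers 4 of 7 (median -0.16, 1 higher and 2 lower). Fat cell markers had 7 of 8 above 0 (median 0.31, 1 higher), macrophage markers 8 of 9 (median 0.25, none at an unadjusted p under 0.05) and nerve and Schwann cell markers 5 of 8 (median 0.004, 1 higher). Of all genes tested, 4.86% were higher and 7.18% lower at an unadjusted p under 0.05.

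Lox, the lysyl oxidase that cross-links tropoelastin, is named here after its values were seen. It ranged from 33.3 to 98.3 CPM at 24 months and from 32.8 to 246 CPM at 30 months, was higher in 4 of 8 mice and had its largest change, 2.61 on the log2 scale, in mouse 29, in which Fbn1 had its lowest. Its log2 fold change was 0.51 (SE 0.35, adjusted p = 0.574 in edgeR).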
